A study of Mus musculus with 8 samples.

Results

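The genes described here build, read and recruit methylation of lysine 9 of histone H3 (H3K9) in mouse embryonic stem cells. They are 9 genes: the H3K9 methyltransferase genes Setdb1, Ehmt1, Ehmt2 and Suv39h2, the corepressor gene Trim28, the zinc finger gene Zfp57, and the heterochromatin protein 1 (HP1) genes Cbx1, Cbx3 and Cbx5. They were chosen by function, and the values are every peak of N6-methyladenosine (m6A), the methylated adenosine of mRNA, that the deposited peak tables place on them. Of the 9 genes, 8 carried a peak, among 13110 gene identifiers with a peak in all. Their peaks numbered 29 of the 27612 in the table of doxycycline (Dox) cells and 26 of the 25815 in the control table.

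The study mapped m6A by immunoprecipitation (IP) in cells in which Dox switches on a knockdown of Setd2, whose product places trimethylation on lysine 36 of histone H3. Dox cells received 1 µg/ml Dox for 4 days, and control cells carried the same inducible knockdown without Dox. All cells grew without feeders, as spheres, in serum-free medium with 1 µM of the MEK inhibitor PD0325901, 3 µM of the GSK3 inhibitor CHIR99021 and 1000 U/ml leukemia inhibitory factor. The 8 libraries form 4 groups of 2 replicates, namely IP and input of Dox cells and IP and input of control cells. Cells given Dox without the inducible knockdown were not analysed here, so an effect of Dox itself and that of the knockdown cannot be told apart.

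Each condition has a single peak list made from both replicates together, so no spread between replicates can be given and no difference was tested. The labels do not say whether the replicates are separate cultures. The depth behind each peak is unknown. Each peak has a fold enrichment, the ratio of IP over input, and a log10 of its false discovery rate (FDR), both the authors' own values. Folds of lists called separately are given side by side and are not divided by each other. Setd2 itself had 6 peaks in the Dox table and 10 in the control table, and a peak table does not measure transcript level. Of 10 stem cell markers, all had peaks in both tables, as did 2 of 6 fibroblast markers, 3 of 4 neural markers and 0 of 3 endoderm markers. Of the markers, 1 neural and 1 endoderm gene had peaks in the control table alone. Over all identifiers with a peak, 79.9% had peaks in both tables.

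Methylated H3K9 marks silent chromatin. In embryonic stem cells, KRAB zinc finger proteins bind particular DNA sequences and bring in TRIM28, which recruits the methyltransferase SETDB1 to trimethylate H3K9 at endogenous retroviruses. ZFP57 is such a protein, binds methylated imprinting control regions, and helps to keep genomic imprints. EHMT1 (also GLP) and EHMT2 (also G9a) work as a heterodimer that places mono- and dimethylation of H3K9 in gene-rich chromatin, SUV39H2 trimethylates H3K9 in pericentric heterochromatin, and the HP1 proteins CBX5 (alpha), CBX1 (beta) and CBX3 (gamma) bind the methylated lysine through their chromodomains.

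With all listed peaks counted, most m6A peaks of these genes were found in both conditions. Of the 29 Dox peaks, 8 (27.6%, exact Clopper-Pearson 95% interval 12.7% to 47.2%) had no overlapping control peak, near the 29.1% of all Dox peaks. No Dox peak overlapped 6 of the 26 control peaks (23.1%, 8.97% to 43.6%), against 19.3% of all control peaks. The intervals reflect counting error alone and treat peaks as independent, although peaks of 1 transcript share their RNA. Among peaks with a fold of 4 or more in both lists, 2 of 8 Dox peaks of these genes had no counterpart (25%, against 31.6% of all such Dox peaks), and 7 of 13 control peaks had none (53.8%, against 45.7% of all such control peaks). All 8 genes with a peak had peaks in both tables, as did 79.9% of all identifiers. Trim28 differed from the other 7 genes in that none of its peaks overlapped a peak of the other table, as was the case for 4.08% of identifiers with peaks in both tables.

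**Figure D1:**
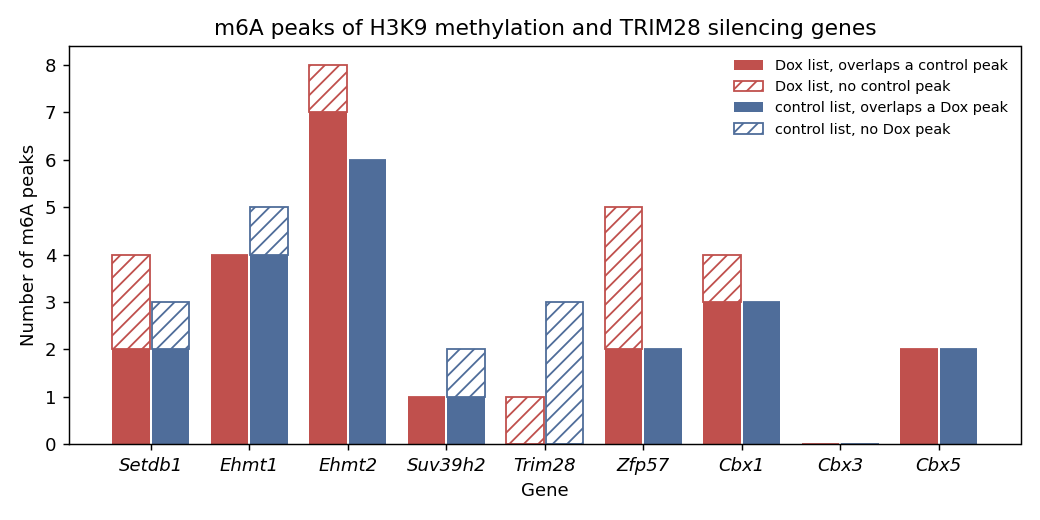
Number of m6A peaks on each gene (vertical axis) in the Dox table (left bar) and the control table (right bar), with hatched parts for peaks that have no overlapping peak in the other table. Ehmt2 has most peaks (8 in Dox, 6 in control), Cbx3 has none, and the bars of Trim28 (1 in Dox, 3 in control) are hatched throughout.

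The peaks of these genes were well supported but moderate in fold. Their median fold was 2.96 in the Dox table, where the median of all peaks was 3.51, and 4.02 in the control table, where it was 4.62. A log10 FDR no higher than -20 was reached by 15 of the 29 Dox peaks (51.7%), against 27.8% of all Dox peaks, and by 15 of the 26 control peaks (57.7%), against 34.6% of all control peaks. Peaks that ran over several exons, listed as more than 1 block, made up 65.5% of the Dox and 61.5% of the control peaks of these genes, and 42.7% and 41.2% of all Dox and control peaks. Taking the highest fold of each gene, the median over the 8 genes was 5.25 in the Dox table (4.70 over all identifiers) and 5.63 in the control table (7.14 over all identifiers).

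Strongly supported peaks without a counterpart came from 3 genes. Among the 15 Dox peaks whose log10 FDR was no higher than -20, 3 had no control peak, 1 each on Setdb1, Trim28 and Zfp57, where 2.80% of all such Dox peaks had none. All 3 had folds under 3, and in that class, set after their values were seen, 3 of 5 Dox peaks of these genes lacked a control peak, against 10.8% of all Dox peaks of that class. Among the 15 control peaks at or below -20, 1 had no Dox peak, on Trim28, where the share over all such control peaks was 1.36%. Between -20 and -5, 3 of 9 Dox peaks and 3 of 6 control peaks lacked a counterpart, against 20.0% of all Dox and 14.8% of all control peaks of that class. Above -5 the numbers were 2 of 5 Dox peaks and 2 of 5 control peaks, against 52.1% and 40.4%. With so few peaks, spread over 8 transcripts, these counts are a description.

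**Figure D2:**
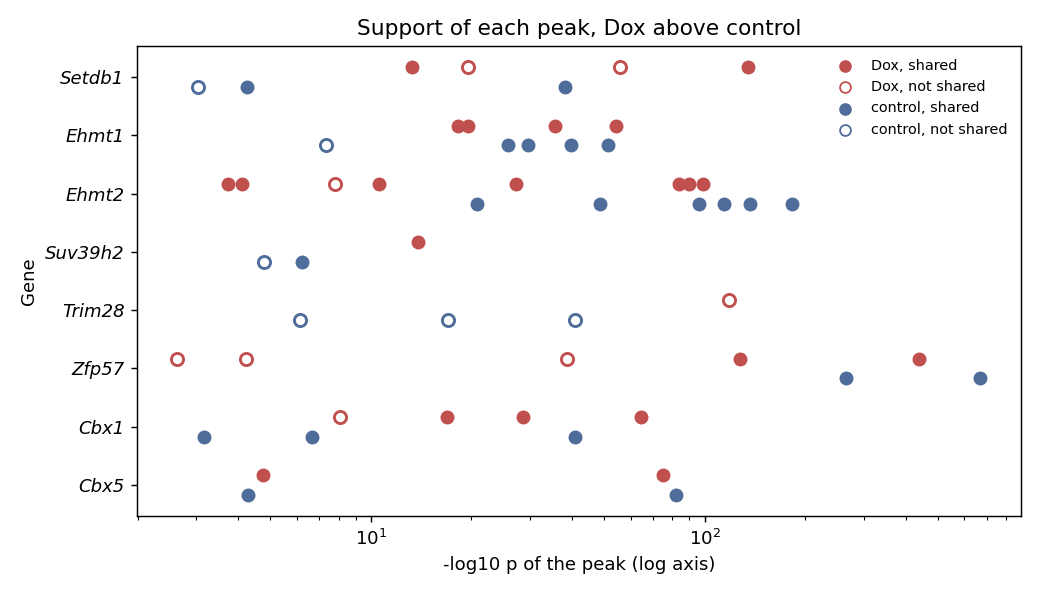
Each point is 1 peak, placed by the -log10 of its p-value (horizontal log axis) and by gene, with Dox peaks above control peaks. Open points have no overlapping peak in the other table, and the open points furthest to the right are the Trim28 Dox peak (log10 p -118), the Setdb1 Dox peak (-55.6), the Trim28 control peak (-41.0) and the Zfp57 Dox peak (-38.8).

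Counted from the outer 5′ end of each gene, peaks centred at most 500 nt from it were found in the control table and not in the Dox table. Centred at most 500 nt from the gene's 5′ end were 0 of the 29 Dox peaks and 2 of the 26 control peaks. Over all placed peaks the shares were 7.94% in the Dox table and 13.4% in the control table. The 2 control peaks lay on Trim28 and Suv39h2, and neither had a Dox peak, as was so for 38.8% of all control peaks at 5′ ends. The measure goes by the midpoint of a peak's exonic length. It counts from the outer 5′ edge of the gene, not from annotated starts inside it. Cbx1 and Zfp57 had peaks within the first 50 bases of an annotated transcript in both tables, but these are centred more than 500 nt from that edge. The Zfp57 Dox peak at such an inner start had a fold of 12.6. Ehmt2 also had overlapping peaks of both tables on its 5′ side, outside the window. They were centred 1065 nt from that edge in control, and 734 nt and 1428 nt from it in Dox. Its control peak begins at 34899032 and its first Dox peak at 34899152, past an annotated start at 34898970. The sequences at the 5′ edge of 4 control peaks are shown because they mark where the unshared peaks of Trim28 and Suv39h2 and the shared peaks of Cbx1 and Zfp57 begin. They are RefSeq sequences of GRCm38.p6 (mm10), 130 bases each, read 5′ to 3′ on the strand of the gene, with capitals for bases inside the control peak. Trim28 is on the plus strand at chr7:13024052-13024181, Suv39h2 on the minus strand at chr2:3474957-3475086, Cbx1 on the plus strand at chr11:96789027-96789156, and Zfp57 on the plus strand at chr17:37002353-37002482.
Trim28: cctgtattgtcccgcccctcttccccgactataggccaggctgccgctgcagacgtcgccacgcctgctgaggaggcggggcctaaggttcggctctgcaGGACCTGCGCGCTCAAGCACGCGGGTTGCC
Suv39h2: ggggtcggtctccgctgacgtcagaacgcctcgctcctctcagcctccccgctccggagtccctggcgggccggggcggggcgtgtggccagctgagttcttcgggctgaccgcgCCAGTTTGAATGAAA
Cbx1: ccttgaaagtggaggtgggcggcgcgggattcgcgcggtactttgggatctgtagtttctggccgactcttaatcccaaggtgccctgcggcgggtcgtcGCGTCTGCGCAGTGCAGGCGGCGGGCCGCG
Zfp57: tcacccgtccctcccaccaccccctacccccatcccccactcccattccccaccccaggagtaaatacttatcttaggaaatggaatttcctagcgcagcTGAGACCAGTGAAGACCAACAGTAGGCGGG

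The Trim28 control peak begins at the annotated start itself (13024152), and the Suv39h2 peak 15 nt downstream of its start (3474986). The control peaks of Cbx1 and Zfp57 begin upstream of an annotated start, at -8 nt from 96789135 and at -72 nt from 37002525. The 4 letters GGAC, a common core of the m6A consensus, open the capitals of Trim28. Among the 14 annotated starts of the 9 genes, 3 hold GGAC in the first 50 transcribed bases (1 start each of Trim28, Zfp57 and Cbx3), against 18.9% of 32851 annotated starts. On the opposite strand 1 of the 14 holds it, against 17.4% of all. A match describes the letters and does not show a methylated site.

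Setdb1, the gene of the TRIM28-recruited methyltransferase, is a minus-strand gene of chromosome 3 (95323525 to 95357202, ENSMUSG00000015697.14). It had 4 peaks in the Dox table and 3 in the control table. Its main peak lay in the 3′ part of the gene and ran over 4 exonic blocks in both tables. In the Dox table that peak spanned chr3:95325798-95327801, with a fold of 5.67 (log10 FDR -133), and in the control table it ended at 95327711, with a fold of 3.08 (log10 FDR -36.8). The 749 nt of the control peak were all within the 839 nt of the Dox peak. A second shared peak, in the middle of the gene, was listed at a fold of 2.12 in Dox and of 1.58 in control. A Dox peak nearer the 5′ end, at chr3:95346738-95348091 (fold 2.98, log10 FDR -54.1), was 8029 nt from the nearest control peak. This and the other gaps between peaks are measured along the genome, introns included. Another Dox peak, centred within 1000 nt of the 3′ end of the gene (fold 2.29, log10 FDR -18.4), also had no counterpart. The control peak without a Dox peak was weak (fold 1.71, log10 FDR -2.34) and was centred 1003 nt from the 5′ end. Its 2 blocks begin 120 nt and 1000 nt from that end, so the peak itself starts near it.

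Ehmt1, which encodes GLP, is a minus-strand gene of chromosome 2 (24790769 to 24919643, ENSMUSG00000036893.17), with 4 Dox and 5 control peaks. All 4 Dox peaks overlapped control peaks. From 5′ to 3′ their folds were 5.27, 5.22, 3.31 and 4.42 in the Dox table, and those of their counterparts were 4.97, 5.01, 5.99 and 4.76 in the control table. The peaks therefore had a narrow range of folds in either table, but the third was lowest within the Dox table and highest within the control table. The most 3′ peak, chr2:24791785-24792084, had the same bounds in both tables. The control peak at chr2:24806336-24807025 (fold 4.08, log10 FDR -6.45) lay 14251 nt from the nearest Dox peak.

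Ehmt2, which encodes G9a, the partner of GLP, had the most peaks, with 8 in the Dox table and 6 in the control table. It is a plus-strand gene of chromosome 17 (34898463 to 34914073, ENSMUSG00000013787.15). Its peaks of the 5′ part held the highest fold of all 9 genes in the control table: the peak at chr17:34899032-34902267 had a fold of 23.4 (log10 FDR -94.6), and 93.1% of identifiers had a lower highest fold in that table. In the Dox table this stretch was covered by 2 narrower peaks, of 91 nt (fold 2.96, log10 FDR -3.39) and 241 nt (fold 3.38, log10 FDR -26.0), which together shared 332 of the control peak's 781 nt. The highest Dox fold of the gene was 5.23, at chr17:34902567-34905769 (log10 FDR -96.8), and 56.9% of identifiers had a lower highest fold in the Dox table. That peak began at the same base as a control peak with a fold of 8.65.

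Further along Ehmt2, the neighbouring shared peaks had folds of 3.84, 1.84 and 1.38 in the Dox table, and of 8.70, 5.33 and 2.26 in the control table. The peak at the 3′ end, chr17:34912772-34914052 in Dox, had a fold of 3.16 in the Dox table and of 2.78 in the control table. Within the control table the folds thus spanned 2.26 to 23.4 with the highest at the 5′ side, and those of the Dox table spanned 1.38 to 5.23 with the highest in the middle of the gene. All 6 control peaks overlapped a Dox peak. The Dox peak without a control peak, chr17:34907554-34908281, had a fold of 1.46 (log10 FDR -6.94), and lay 203 nt from the nearest control peak. Cmtr1 was the 1 other named gene with the same 4 numbers of peaks and unshared peaks as Ehmt2, with highest folds of 2.89 in Dox and 10.5 in control (distance 1.44 in log2 fold over the 2 tables). Zbtb40 and Arid1a came next, each with 1 of the 4 numbers off by 1 and fold distances of 0.30 and 0.42.

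Suv39h2, the gene of a trimethylating enzyme of pericentric heterochromatin, is a minus-strand gene of chromosome 2 (3455815 to 3474986, ENSMUSG00000026646.16). It had 1 Dox peak and 2 control peaks. The Dox peak, chr2:3462615-3464854, had a fold of 5.56 (log10 FDR -12.8) over 601 nt, and it contained the whole of the control peak at chr2:3464494-3464794, with a fold of 2.64 (log10 FDR -5.39) over 301 nt. The other control peak was the one at the 5′ end, chr2:3474821-3474971, with a fold of 11.7 but a log10 FDR of -4.01. It set the highest control fold of the gene, which was 2.64 among control peaks with a log10 FDR of at most -5 and in the authors' shorter control list.

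Trim28, the corepressor that joins zinc finger proteins to SETDB1, is a plus-strand gene of chromosome 7 (13024152 to 13031032, ENSMUSG00000005566.13). Its single Dox peak, chr7:13025759-13028124, covered 450 nt in 3 blocks and had a fold of 1.45 at a log10 FDR of -116. Such a low fold is rare at this support, since of the 1924 Dox peaks whose log10 FDR was at most -100, 6 (0.312%, itself included) had a fold no higher. The 3 control peaks lay elsewhere on the transcript. The 5′ end peak, chr7:13024152-13024362, had a fold of 5.27 (log10 FDR -16.0), and a short one of 61 nt at chr7:13024811-13024871 had a fold of 2.22 (log10 FDR -5.29). The best supported, chr7:13028244-13028514, had a fold of 3.05 (log10 FDR -39.7) and was separated from the Dox peak by 119 nt. Within the Dox table the highest fold of Trim28 was above that of 0.980% of identifiers, and within the control table above that of 35.7%. The authors' shorter list, limited to folds of at least 2, held no Dox peak and all 3 control peaks of Trim28.

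Zfp57, the KRAB zinc finger gene of imprint maintenance, is a plus-strand gene of chromosome 17 (37001163 to 37010729, ENSMUSG00000036036.15) and carried the best supported peaks of the 9 genes in both tables. It had 5 Dox and 2 control peaks. The peak at the internal start, chr17:37002453-37003130, had identical bounds in both tables. Its fold was 12.6 in the Dox table, with a log10 p of -128, and 5.61 in the control table, with a log10 p of -266. The peak at the 3′ end covered 776 nt in Dox (chr17:37009830-37010605, fold 8.02, log10 p -440) and 329 nt in control (chr17:37010277-37010605, fold 11.5, log10 p -670), and both ended at the same base. The internal start peak thus had the highest fold of the gene in the Dox table, and the 3′ peak in the control table.

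The other 3 Dox peaks of Zfp57 had no control peak. They had folds of 1.5, 1.42 and 1.95 from 5′ to 3′, with log10 FDRs of -2.01, -3.47 and -37.5, and none was in the authors' shorter list. The last of them, chr17:37006243-37009741, ended 535 nt before the control peak of the 3′ end. It lay closer to the wider Dox peak of the 3′ end, which begins at 37009830. Some zinc finger genes have close copies. Whether reads of Zfp57 are shared with other genes was not tested, so its values are less certain.

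**Figure D3:**
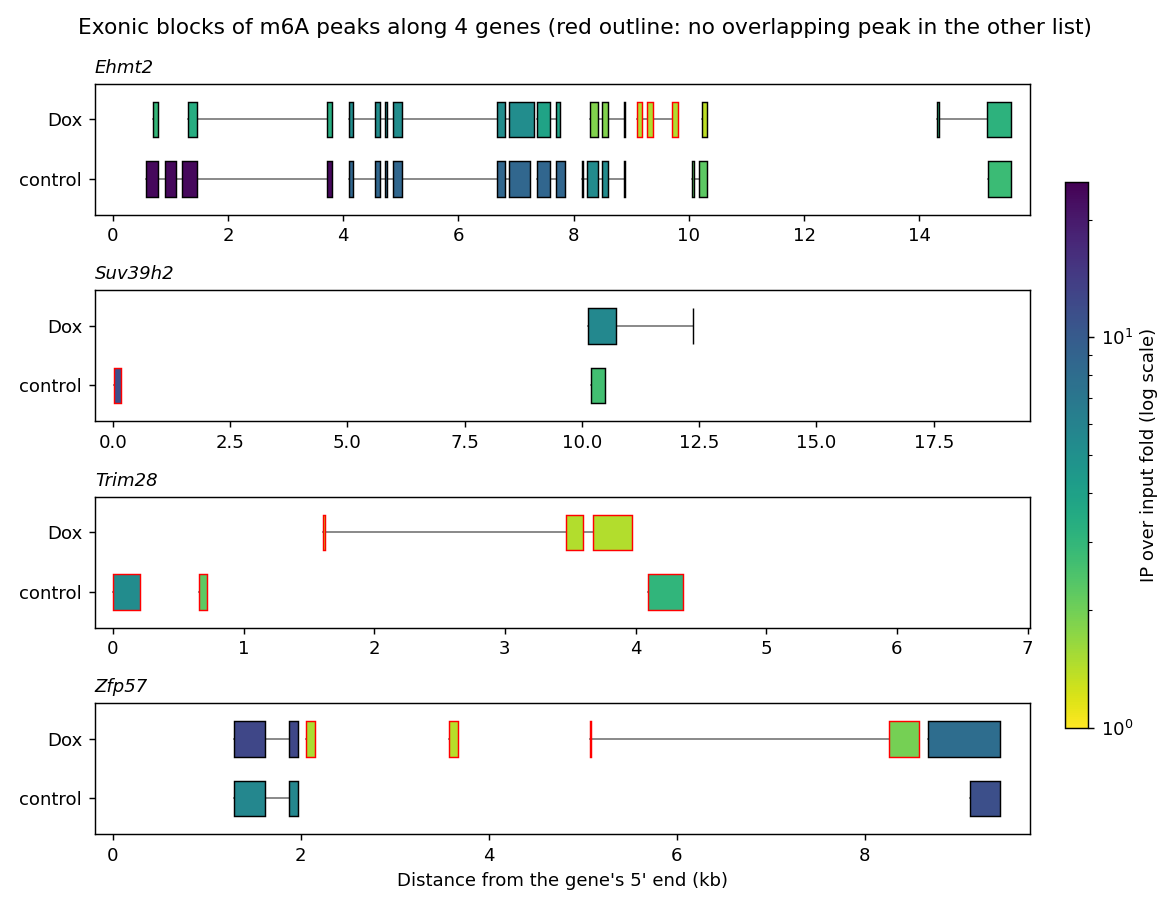
Exonic blocks of the peaks of 4 genes, drawn to scale as distance from the 5′ end in kb, with Dox above control, grey lines joining blocks of 1 peak, colour for fold, and red outlines for peaks that the other table does not match. The darkest control blocks are those of the Ehmt2 peak with a fold of 23.4, and the Trim28 blocks of both tables lie side by side without overlap.

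Cbx1, which encodes HP1 beta, is a plus-strand gene of chromosome 11 (96788680 to 96808982, ENSMUSG00000018666.13), with 4 Dox and 3 control peaks, all of low fold. Its folds lay between 1.5 and 2.49 in the Dox table and between 1.38 and 3.19 in the control table. All 3 control peaks overlapped a Dox peak. The peak of 2 blocks next to the start was listed at a fold of 2.33 in both tables, with a log10 FDR of -27.4 in Dox and -5.78 in control. The following peak, chr11:96801351-96802883 in Dox, had a fold of 2.49 in Dox and 3.19 in control and was the best supported of the gene in both tables (log10 FDR -62.8 in Dox, -39.7 in control). The Dox peak without a counterpart, chr11:96806634-96806873, had a fold of 1.5 (log10 FDR -7.19).

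Cbx5, the gene of HP1 alpha, is a minus-strand gene of chromosome 15 (103191546 to 103239904, ENSMUSG00000009575.14) with matching peaks in both tables. It had 2 Dox and 2 control peaks, each overlapping its counterpart. The main peak, chr15:103199622-103205609 in Dox, had a fold of 3.71 (log10 FDR -73.2) in Dox, and a fold of 3.96 (log10 FDR -80.3) in control. The 331 nt of the control peak were all within the Dox peak. The weaker one had a fold of 1.43 in Dox and 1.40 in control, with log10 FDRs of -3.99 and -3.51. Cbx3, the gene of HP1 gamma, is a plus-strand gene of chromosome 6 (51470154 to 51483704) and had no peak on its strand in either table. RefSeq lists 6 pseudogenes named after Cbx3, which had 0 Dox and 0 control peaks. The sources used here do not say how reads that match several copies were counted, so the lack of a listed peak does not show that the transcript carries no m6A.

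**Figure D4:**
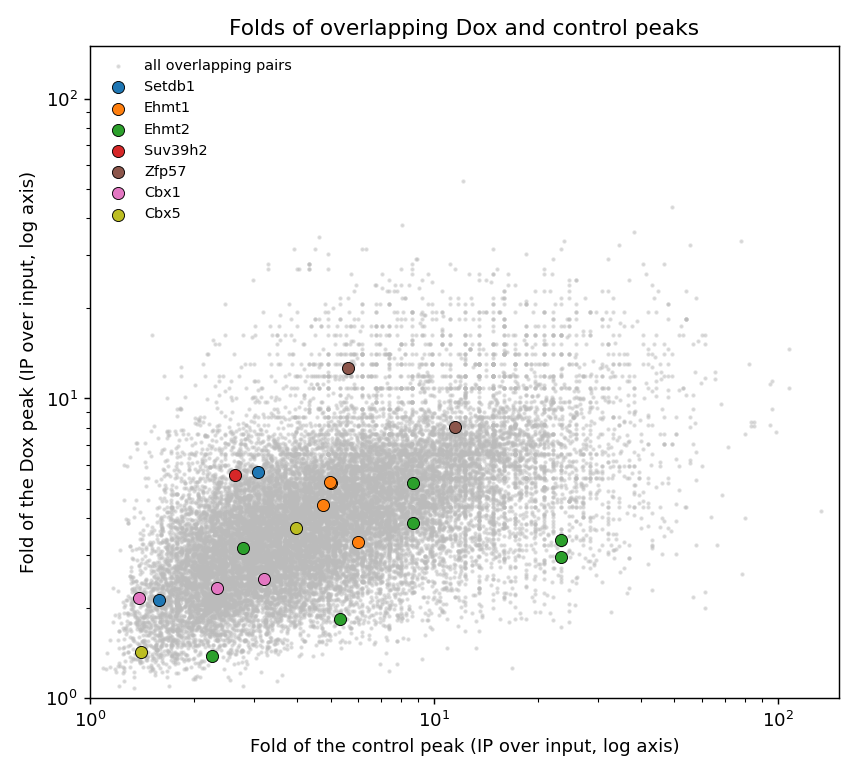
Each point is a Dox peak and a control peak that overlap, with the fold within the control table on the horizontal and the fold within the Dox table on the vertical axis (both log axes), grey for all genes and coloured for the genes described here. The 2 Ehmt2 points at a control fold of 23.4 share 1 control peak, the Zfp57 point at a Dox fold of 12.6 is the highest of these genes, and Trim28 and Cbx3 have no point.

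Where a Dox and a control peak of these genes matched one to one, the Dox peak was mostly the wider, as it was over all genes. Of 19 such pairs, the Dox peak was wider in 13, equal in 3 and narrower in 3. The 3 narrower ones were all on Ehmt2. Over all one-to-one pairs it was wider in 56.8%, and the median ratio of widths was 1.15 for these genes and 1.10 over all. Both bounds were identical in 2 of the 19 pairs (Ehmt1 at its 3′ side and Zfp57 at its internal start) and in 10.2% of all pairs.

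Other genes of H3K9 methylation and TRIM28 silencing were listed for comparison, 43 in all: further methyltransferases, demethylases, partners and readers. Of these, 41 had a peak and 38 had peaks in both tables, where 79.9% of all identifiers with a peak had both. Of their 152 Dox peaks, 61 (40.1%) had no control peak, against 29.1% of all Dox peaks. These peaks were not split by FDR class. Over all Dox peaks the share was 52.1% above a log10 FDR of -5 and 2.80% at -20 or less. Some identifiers placed on this list by location may belong to overlapping genes. Of their 132 control peaks, 25 (18.9%) had no Dox peak, against 19.3% of all control peaks. The median of the highest folds was 5.81 in the Dox table and 7.29 in the control table. Suv39h1, the paralogue of Suv39h2, had a single peak in each list, with a fold of 4.01 in Dox and 2.50 in control, and was named after its values were seen. Kdm4c, an H3K9 demethylase gene, had a peak in Dox alone (fold 2.24, log10 FDR -3.08). Sumo2, which encodes a small ubiquitin-like modifier, had 1 in control alone (fold 1.95, log10 FDR -6.38), and so did an identifier placed by its location on Mecom, a PR domain gene (fold 12.3, log10 FDR -2.02), which may be another gene model there.

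The highest folds of this longer list belonged to peaks of very different support. In the Dox table Prdm16, a PR domain gene, came first with a fold of 18.4 (log10 FDR -3.69), followed by the H3K9 demethylase gene Kdm3a at 13.0 (-12.9), Morc3 at 8.87 (-96.5) and Tasor2 at 8.68 (-2.76). In the control table Prdm16 also came first, with a fold of 33.2 (-7.33), and the 4 highest also held Trim24, a relative of Trim28, at 20.1 (-94.9) and Morc2a, a partner of the HUSH silencing complex, at 18.2 (-109). Of the 38 genes of the list with peaks in both tables, 3 had no overlap between them, as had Trim28. Over all identifiers with peaks in both tables, the share was 4.08%. Tasor and Resf1 were named after their values were seen. Tasor, the gene of a core HUSH subunit, had 4 Dox peaks and 1 control peak, its paralogue Tasor2 had 3 and 1, and Resf1, a silencing factor of endogenous retroviruses, had 3 and 1.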

How the data were processed

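The members and lists were chosen with earlier results of these data known. Libraries came from purified, sonicated mRNA, with or without IP by an m6A antibody, and their preparation kept strand, per the labels' protocols. FastQC 0.11.5, TopHat2 2.1.1 and mm10 are named in the submitters' processing notes. The deposited tables carry exomePeak in their names. No source used here gives its version, its settings, its gene annotation or whether counting used strand. The deposited fold of a peak is the ratio of IP to input by the authors, per the file headers. The deposited p-value stands in the column headed score, and the log10 of p and of FDR are further deposited columns, recorded here as scores. Checked on the files, the authors' shorter lists held exactly the peaks with p up to 1e-05 whose fold was 2 or more.

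An identifier took its symbol from the RefSeq protein-coding gene (GRCm38.p6) on its strand that contained the largest share of its peak midpoints, 50% or more and without a tie. Per symbol the identifier with most peaks was kept, and 10679 of 13110 were named (81.5%). Overlapping genes can be misnamed in this way. Peaks were shared when 1 or more exonic nucleotides on 1 strand overlapped. Position was that of the midpoint of a peak's exonic length, in genes from 3000 nt upward. Distances from gene ends and gaps between peaks were genomic, introns included, and are not distances along the spliced transcript. Named genes were all members, Setd2, other pathway genes with peaks in 1 table or among the 4 highest folds of a table, and the 3 genes most like the member with most peaks. Tasor, Resf1 and Suv39h1 were later choices. A gene that this rule names is not reported here. On simulated peaks, 300 per list, 0 overlap calls were wrong. Python 3.11.15, numpy 2.4.6, pandas 2.3.3, scipy 1.17.1 and matplotlib 3.10.9 were used.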

Additional observations from a re-analysis of the deposited data

How the results depend on the processing

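No paired analysis was possible because each table pools both replicates, and for the same reason leaving out a replicate was not run. In the authors' shorter lists these genes had 19 Dox and 21 control peaks, 4 Dox peaks without a control peak (21.1%, against 22.3% of all Dox peaks there), 6 control peaks without a Dox peak (28.6%, against 24.0%), and median folds of 3.71 in Dox and 4.76 in control. When peaks under a fold of 4 were dropped from both lists, 8 Dox and 13 control peaks were left. Of these, 2 Dox peaks (25%, against 31.6% of all) and 7 control peaks (53.8%, against 45.7% of all) had no counterpart. The median folds were 5.41 in Dox and 5.61 in control. Under that limit 4 genes had peaks in both tables, and 1 gene had its top control peak overlapped by a Dox peak. With all peaks 6 genes had this overlap, and with a log10 FDR limit of -5 it was 7. Shares over all genes were not computed for the overlap of top peaks at any of these settings, so those counts are a description. Nor was the share of genes with peaks in both tables computed at the fold limit. With peaks above a log10 FDR of -5 dropped from both lists, the median folds were 3.24 in Dox and 4.76 in control. Then 8 Dox peaks (33.3%, against 22.3% of all) and 5 control peaks (23.8%, against 21.0% of all) had no counterpart. Some of these had a counterpart that the limit itself removed. With the limit on the counted peaks alone and the full other list kept, 6 Dox and 4 control peaks had none. The share over all Dox peaks was then 20.0% between -20 and -5 and 2.80% at -20 or less. For all control peaks it was 14.8% and 1.36%. With a 5′ window of 1000 nt, 1 Dox and 4 control peaks were centred there, and the share over all peaks at this window was not computed. The 4 include the Cbx1 control peak centred at 626 nt, which overlaps a Dox peak centred at 12118 nt. Asking for 50% overlap of the shorter peak, or taking whole spans, gave 8 Dox and 6 control peaks without a counterpart, as did the main setting. Of 31 highest folds recomputed, 29 were equal and 2 changed (Suv39h2 in control, 2.64 in place of 11.7 in the shorter lists and under the FDR limit). Trim28 had no Dox peak in the shorter list. Depth is unknown, so a missing peak may be one that was not detected.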

Other observations

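Within the interval of Cbx1, the control table also lists a peak on the minus strand, under the identifier ENSMUSG00000081249.3 (chr11:96795706-96795825, fold 4.92, log10 FDR -3.32), while the Dox table lists none there. It was the 1 peak of another identifier within the intervals of the 9 genes. It lay between the 2 exonic blocks of the Cbx1 control peak at chr11:96789127-96800902, and so outside the exonic sequence of that peak. The sources used here do not say whether counting used strand, and whether reads of Cbx1 entered the minus-strand peak was not tested.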
